A study of Mus musculus with 15 samples.

Results

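The genes described are 214 protein-coding genes that were lowest in mouse livers given methotrexate alone. Their level in every methotrexate library lay below their level in every other library of the series. Levels are in CPM, the count of a gene divided by the total count of its library and scaled so that each library sums to 1000000; they are not corrected for gene length. The members were chosen by their measured CPM in all 15 libraries: the rule took protein-coding genes with a mean of at least 2 CPM over all 15 libraries, required the highest of the 5 methotrexate libraries to lie below the lowest of the other 10, and left out gene symbols starting with Col, Itg or Fzd. Of 54532 genes in the table, 10826 were candidates for the rule and 214 met it, which is 1.98% of the candidates. If all ways of choosing 5 of 15 libraries were equally likely for each gene, 3.61 genes would be expected, or 0.0333% of the candidates. That number treats the genes and libraries as exchangeable, while a shift of a whole library moves many genes at once, so it is not a test.

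The study measured liver RNA of wild-type mice in 3 groups of 5 libraries. The MTX mice received a single intraperitoneal injection of methotrexate (20 mg/kg), and the MTX+nitrate mice received the same injection on day 5 of drinking water with 2 mM nitrate. Livers were collected 24 h after the injection, and the control mice are labelled only as control, so no group with nitrate alone was analysed here. The labels do not give the age or sex of the mice, or state that the 5 libraries of a group came from 5 mice, so p-values measure the spread between libraries. Library totals ran from 16663967 to 19274497 counts, and a gene at 2 CPM in the smallest library held 33.3 counts, with a counting error of 17.3%. Hepatocyte markers were present in all libraries, 9 genes summing to 117631 to 125404 CPM in the MTX group, 95859.6 to 131257 CPM in the MTX+nitrate group and 100712 to 127402 CPM in the control group.

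Methotrexate is a folate antagonist that blocks dihydrofolate reductase and so depletes the cofactors of purine and thymidylate synthesis, and at high dose it can injure the liver. Dietary nitrate is reduced in the body to nitrite and nitric oxide. The liver is mostly hepatocytes by mass, and its sinusoids are lined by a specialised endothelium, so RNA of the whole organ mixes these cells. The members were sorted by hand into roles after their names were known, and how many candidates have each role was not counted, so the role counts below order the text and show no theme.

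Promoter sequences are shown for 3 members that had among the widest gaps between MTX and the other libraries, to let their start regions be compared. They are the RefSeq windows on GRCm38.p6 from 250 bases before to 50 bases after the annotated start, written 5′ to 3′ on the gene's strand. Capitals mark the GC box GGGCGG, which the Sp family of factors binds, and the CCAAT box, each on either strand. The Plekhg1 window (chr10:3872417-3872716, plus strand) held neither motif. It belongs to a start inside the gene, so the region at the 5′ end of Plekhg1 was not examined. The window of the first Pou2f1 start (chr1:166002585-166002884, minus strand) held 2 GC boxes, while the windows of its 2 other annotated starts, not printed, held neither motif. The Sp4 window (chr12:118301391-118301690, minus strand) held 5 GC boxes and 1 CCAAT box.
Plekhg1: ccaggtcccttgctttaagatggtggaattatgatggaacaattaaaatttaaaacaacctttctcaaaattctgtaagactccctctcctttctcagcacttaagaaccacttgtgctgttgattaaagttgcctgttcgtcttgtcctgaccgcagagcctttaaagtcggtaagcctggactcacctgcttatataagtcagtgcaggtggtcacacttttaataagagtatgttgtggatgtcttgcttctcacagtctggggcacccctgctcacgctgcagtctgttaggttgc
Pou2f1: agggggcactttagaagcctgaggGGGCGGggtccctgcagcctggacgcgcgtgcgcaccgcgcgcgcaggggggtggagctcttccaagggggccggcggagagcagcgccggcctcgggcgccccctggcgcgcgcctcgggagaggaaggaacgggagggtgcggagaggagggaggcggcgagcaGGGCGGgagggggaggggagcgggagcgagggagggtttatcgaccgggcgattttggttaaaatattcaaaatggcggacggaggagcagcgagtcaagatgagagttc
Sp4: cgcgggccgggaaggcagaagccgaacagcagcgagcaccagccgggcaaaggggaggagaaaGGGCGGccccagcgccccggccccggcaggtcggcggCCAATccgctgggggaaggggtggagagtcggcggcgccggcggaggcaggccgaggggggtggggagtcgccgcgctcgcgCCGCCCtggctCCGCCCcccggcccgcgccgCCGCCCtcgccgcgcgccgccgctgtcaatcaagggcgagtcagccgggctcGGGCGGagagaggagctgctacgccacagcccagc

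A window was found for 166 members and for 8587 candidates. The GC box GGGCGG, on either strand, was in 74.1% of member windows and 69.0% of candidate windows. CCAAT was in 37.3% of member windows and 43.0% of candidate windows, and the TEAD-type motif GGAATG in 16.9% and 14.2%. The cAMP-response core TGACG, which also lies within the full element TGACGTCA, was in 33.7% of member windows and 36.0% of candidate windows. For the E-box CACGTG the shares were 14.5% and 12.0%, for AGGTCA 16.3% and 15.4%, for the D-box TTANGNAA 12.0% and 10.1%, for TATAAA 10.2% and 8.96%, for ATCAAAG 3.61% and 3.07%, and for TGACGTCA 2.41% and 3.54%. The shares of members and of all candidates were close for each motif and were not tested. Median GC content of the windows was 62.3% in members and 60.8% in candidates.

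The size of the group depended on how the libraries were scaled. On plain CPM, 214 genes were lowest and 17 were highest in all MTX libraries. After TMM scaling (the trimmed mean of M values), which sets the bulk of genes equal between libraries, 60 of the 214 were still lowest, and no other gene joined them, while 106 genes were highest. The excess of lowest over highest genes on plain CPM therefore turned into its opposite under TMM. After a smooth trend on gene length and GC content was removed in each library, 38 genes were lowest, 35 of them members, and 68 were highest. Both scales kept 28 members and neither kept 147. The median candidate itself had a MTX over control ratio of 0.941 and a MTX over MTX+nitrate ratio of 0.917 on plain CPM, and of 1.01 and 1.00 after TMM scaling. TMM factors were 0.930 to 0.972 in MTX, 0.975 to 1.08 in MTX+nitrate and 1.00 to 1.04 in control libraries. Levels below are plain CPM, as the rule used, and each group of genes is given with how many stayed lowest on the other scales.

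**Figure D1:**
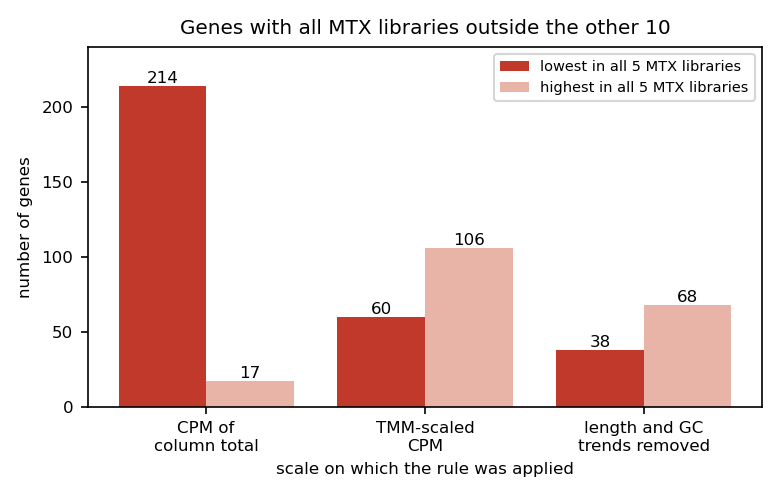
Number of candidate genes whose 5 MTX libraries all lay below (dark bars) or all lay above (light bars) the other 10 libraries, on 3 scales. Removal of length and GC trends also took out each library's mean log2 deviation. Lowest genes outnumber highest genes on plain CPM, with 214 against 17, and the order is the other way round after TMM scaling, with 60 against 106, and after removal of length and GC trends, with 38 against 68.

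As a group, the members had a median MTX over control ratio of 0.741 and a median MTX over MTX+nitrate ratio of 0.708, both fixed in direction by the rule. Relative to the median candidate, these were 0.788 and 0.772. The MTX over control ratio was under 0.5 in 7 members, under 0.6 in 27, under 0.7 in 77 and under 0.8 in 159, and it ran from 0.358 to 0.913. The median log2 deviation of the members from their means over all libraries was -0.35 to -0.29 in MTX, 0.04 to 0.21 in MTX+nitrate and 0.03 to 0.17 in control libraries. The members held 0.713% to 0.773% of all counts in MTX, 0.932% to 1.04% in MTX+nitrate and 0.939% to 1.03% in control libraries. No MTX library stood apart from the other 4 in this index, and MTX+nitrate and control libraries overlapped.

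**Figure D2:**
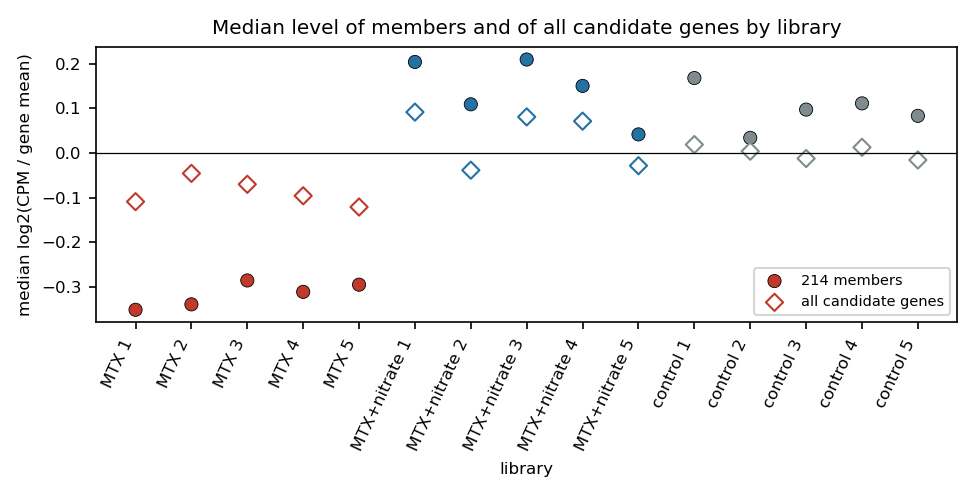
Median over genes of log2(CPM over the gene's mean CPM) in each of the 15 libraries, for the 214 members (filled circles) and for all candidate genes (open diamonds). Members lie at -0.35 to -0.29 in MTX libraries and above 0 in the other libraries, as the rule requires, and the candidates' medians are also below 0 in all 5 MTX libraries.

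Most gaps were small. The lowest other library exceeded the highest MTX library by at least 1% in 184 members, by at least 5% in 93, by at least 10% in 41 and by at least 20% in 8. Their ratio was 1.0001 in Srsf5, a splicing factor and the member nearest to the limit, with 116.8 CPM in both the highest MTX library and the lowest other one. Hps5, Clasp2, Plekha5 and Zdhhc9 were next inside. Just outside lay Eif2ak1, Ncapd3, Tmem241, Cdkn1b and Dll1, with ratios of 0.9985 to 0.9998. Near the expression limit, Zc3h12d (2.25 CPM), Rpgrip1l (2.44 CPM) and Myct1 (2.45 CPM) were just inside by mean, and Hspa12a (1.97 CPM), Tnfaip8l3 (1.90 CPM) and Lpar1 (1.79 CPM) had the pattern but were just outside. The highest MTX library was MTX 3 for 68 members and MTX 5 for 60, and the lowest other library was most often control 2 (42 members) or MTX+nitrate 5 (40 members). The coefficient of variation within a group had a median of 8.99% in MTX, 11.3% in MTX+nitrate and 9.72% in control libraries over the members, against 14.1%, 14.5% and 13.5% over all candidates; the rule favours genes of small spread.

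Extracellular ligands, receptors and signalling proteins made up 26 members, of which 10 stayed lowest after TMM scaling and 8 after trend removal. Values are given in the order of replicates 1 to 5. Tnfsf10 (chr3:27317028-27342427), the death ligand TRAIL, had 4.14, 4.50, 4.18, 3.92 and 5.26 CPM in MTX libraries, against 17.9, 8.20, 13.6, 14.3 and 6.84 CPM in MTX+nitrate libraries and 8.89, 12.6, 9.33, 7.19 and 13.4 CPM in control libraries. Its MTX mean was 0.428 of the control mean and 0.362 of the MTX+nitrate mean, and 3 MTX+nitrate libraries exceeded all controls. C1qtnf1 (chr11:118428203-118449963), a secreted protein with a C1q domain, had 7.66, 5.42, 6.52, 8.19 and 6.62 CPM in MTX libraries, against 15.0, 14.1, 16.0, 15.2 and 9.82 CPM in MTX+nitrate libraries and 15.2, 12.4, 11.7, 14.3 and 14.2 CPM in control libraries. MTX+nitrate and control libraries overlapped for C1qtnf1, and the MTX mean was 0.507 of control. Nkd1 (chr8:88521354-88594884), which binds Dishevelled and restrains Wnt signalling, had 4.26, 3.54, 4.29, 4.50 and 4.13 CPM in MTX libraries, against 6.30, 6.17, 7.09, 8.97 and 6.23 CPM in MTX+nitrate libraries and 5.85, 7.18, 6.27, 5.37 and 6.96 CPM in control libraries. Its MTX over control ratio was 0.655, and 1 MTX+nitrate library lay above all controls. Tgfbr3 codes for betaglycan, a co-receptor for TGF-beta ligands, and had 8.98, 8.21, 10.9, 10.1 and 8.88 CPM in MTX libraries, against 21.3, 16.9, 15.8, 14.0 and 14.3 CPM in MTX+nitrate libraries and 16.7, 13.8, 15.7, 12.1 and 17.2 CPM in control libraries. Its MTX over control ratio was 0.624, and all 4 of these genes stayed lowest on both other scales.

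Sema4c, a membrane semaphorin, had 3.86, 3.99, 4.63, 4.04 and 5.31 CPM in MTX libraries, against 8.21, 7.06, 7.89, 8.68 and 5.39 CPM in MTX+nitrate libraries and 6.36, 6.04, 5.50, 5.91 and 5.34 CPM in control libraries. In this gene 4 MTX+nitrate libraries lay above all controls, and the MTX over MTX+nitrate ratio (0.586) was smaller than that over control (0.749). Ppm1b, a serine/threonine phosphatase of the PP2C family and one of the 10 members with the highest mean, had 142, 151, 149, 145 and 142 CPM in MTX libraries, against 173, 162, 182, 155 and 159.8 CPM in MTX+nitrate libraries and 174, 212, 168, 176 and 161 CPM in control libraries. Control 2 stood above the other controls for Ppm1b, and the MTX over control ratio was 0.818. Neither gene stayed lowest on another scale. Among the signalling members without library values here, Acvr1b, an activin receptor, had a MTX over control ratio of 0.651, Cntfr, the receptor for ciliary neurotrophic factor, 0.568, and Nod1, a sensor of bacterial peptidoglycan, 0.743. Each of these 3 stayed lowest after TMM scaling.

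Endothelial genes made up 6 members, and 3 of them (Myct1, Oit3 and Spns2) stayed lowest on both other scales. Oit3, which marks sinusoidal endothelium, had 11.8, 12.0, 17.4, 16.3 and 15.3 CPM in MTX libraries, against 23.2, 23.3, 32.7, 29.0 and 18.3 CPM in MTX+nitrate libraries and 27.7, 19.4, 21.4, 22.3 and 21.7 CPM in control libraries. Its MTX over control ratio was 0.647, and the other 2 groups overlapped. Eng codes for endoglin, a TGF-beta co-receptor of endothelial cells, and had 63.0, 55.4, 59.8, 69.1 and 73.6 CPM in MTX libraries, against 114, 106, 93.2, 99.3 and 94.7 CPM in MTX+nitrate libraries and 99.3, 81.1, 83.3, 92.7 and 75.1 CPM in control libraries. In Eng, whose position overlaps that of Fpgs, 3 MTX+nitrate libraries exceeded all controls and the MTX over control ratio was 0.744. Cdh5, the cadherin of endothelial junctions, had 26.6, 19.2, 28.4, 29.7 and 27.4 CPM in MTX libraries, against 32.6, 37.7, 42.0, 46.0 and 30.4 CPM in MTX+nitrate libraries and 32.9, 32.0, 30.0, 30.9 and 33.1 CPM in control libraries. The MTX over control ratio of Cdh5 was 0.827, and 3 MTX+nitrate libraries lay above the controls. Tie1, an endothelial receptor tyrosine kinase, had 13.1, 12.0, 14.9, 14.0 and 11.2 CPM in MTX libraries, against 19.2, 18.2, 20.2, 16.3 and 16.4 CPM in MTX+nitrate libraries and 17.8, 16.8, 16.2, 16.2 and 16.8 CPM in control libraries. Its ratio was 0.779, again with 3 MTX+nitrate libraries above all controls. The summed level of 16 sinusoidal endothelial markers ran over 409.6 to 596 CPM for the MTX group, 619.7 to 965 CPM for the MTX+nitrate group and 569.6 to 812 CPM for the controls, and no marker was at 0 in all libraries. In bulk tissue, fewer cells of a type and less RNA per cell cannot be told apart. The list's median log2 change was -0.39 in MTX against control, 0.47 in MTX+nitrate against MTX and 0.14 in MTX+nitrate against control, where all genes tested had -0.00074, 0.0084 and 0.01. Of these 16 markers, 2 (Eng and Oit3) were members, or 12.5% against 1.98% of candidates, a share that a single gene moves widely. The sums and medians of the list include these 2 genes, which the rule chose for being lowest in MTX. By edgeR's quasi-likelihood test none of the 16 was called in MTX against control, where 1.6% of all genes tested were called lower. At an unadjusted edgeR p under 0.05, 7 were lower, where 3117 of all 14219 genes tested passed in either direction. DESeq2 called 5 lower (Eng, Flt4, Kdr, Oit3 and Stab2), where it called 1141 genes in either direction. Eng and Oit3 are members, chosen for being lowest in MTX, so their direction is no finding. The 2 backgrounds count both directions and cannot be set directly against counts of lower markers. In MTX+nitrate against MTX, edgeR called 5 of the 16 higher, against 2.37% of all genes tested. The 3 that are not members were Flt4, the receptor VEGFR3 (log2 change 0.73 ± 0.16 SE, adjusted p 0.0240), Kdr, the receptor VEGFR2 (0.74 ± 0.18, adjusted p 0.0323), and Stab1, a scavenger receptor (0.50 ± 0.13, adjusted p 0.0388). No stellate cell or Kupffer cell marker was a member, of 14 and 11 candidates. Lists this short would often hold none at the 1.98% of all candidates, so this is no contrast between cell types. Summed stellate markers (14 genes) spanned 563.7 to 676.8 CPM for the MTX group, 601.2 to 885.4 CPM for the MTX+nitrate group and 595.9 to 883.9 CPM for the controls. Kupffer cell markers (12 genes) spanned 506.9 to 635.5 CPM, 433.2 to 742.9 CPM and 477.6 to 799.5 CPM in the same groups. Summed cholangiocyte markers (9 genes) spanned 150.2 to 337 CPM for the MTX group, 108 to 158 CPM for the MTX+nitrate group and 122 to 159.9 CPM for the controls, and neutrophil and monocyte markers (12 genes) 18.1 to 133 CPM, 15.9 to 63.6 CPM and 24.9 to 37.3 CPM in the same groups. The part of these cell types in the members' levels was not tested.

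Matrix and basement membrane genes made up 9 members, with a median MTX over control ratio of 0.633 and 4 that stayed lowest after TMM scaling. Hmcn2 (chr2:31314415-31460738), an extracellular hemicentin, had 1.96, 2.39, 2.57, 2.31 and 1.13 CPM in MTX libraries, against 6.86, 8.20, 5.51, 3.71 and 6.34 CPM in MTX+nitrate libraries and 4.45, 3.99, 3.83, 3.70 and 3.60 CPM in control libraries. In Hmcn2 4 of 5 MTX+nitrate libraries exceeded every control, so the MTX over MTX+nitrate ratio was 0.338 and that over control 0.529. Lamb2 (chr9:108479736-108490530), the laminin beta 2 chain of basement membranes, had 8.29, 6.61, 8.48, 8.30 and 7.69 CPM in MTX libraries, against 12.8, 12.5, 14.0, 11.4 and 11.5 CPM in MTX+nitrate libraries and 12.9, 13.0, 11.8, 10.1 and 12.8 CPM in control libraries. Lama2, the laminin alpha 2 chain, had 7.25, 7.53, 5.80, 7.84 and 8.20 CPM in MTX libraries, against 18.2, 10.7, 10.2, 10.6 and 15.9 CPM in MTX+nitrate libraries and 14.5, 20.1, 13.3, 8.70 and 9.96 CPM in control libraries. For both laminin chains MTX+nitrate and control libraries overlapped, and the MTX over control ratios were 0.649 for Lamb2 and 0.550 for Lama2. Slc26a2 (chr18:61192919-61211612), a sulfate transporter needed to sulfate proteoglycans, had 7.02, 7.24, 7.19, 6.17 and 6.73 CPM in MTX libraries, against 10.0, 9.13, 8.31, 12.5 and 10.2 CPM in MTX+nitrate libraries and 11.9, 11.7, 9.33, 9.72 and 11.5 CPM in control libraries. Its ratio over control was 0.633. Hmcn2, Lamb2 and Slc26a2 stayed lowest after TMM scaling and none of the 4 did after trend removal. Chst15, a chondroitin sulfotransferase with a ratio of 0.613, stayed lowest on both; its position overlaps that of Fgfr2.

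Small GTPase regulators and pleckstrin homology proteins numbered 9. Plekhg1 (chr10:3740364-3967303), a guanine nucleotide exchange factor, had the widest gap of all members, and had 3.51, 2.57, 4.18, 3.52 and 4.18 CPM in MTX libraries, against 7.42, 6.69, 10.3, 6.48 and 6.17 CPM in MTX+nitrate libraries and 6.81, 8.03, 6.72, 7.36 and 7.86 CPM in control libraries. The lowest library outside MTX was 1.48 times the highest MTX library, MTX+nitrate 3 was the highest of all, and the MTX mean was 0.488 of control. Plekha6 (chr1:133164210-133303435), a pleckstrin homology domain protein, had 45.7, 54.8, 59.3, 57.6 and 63.6 CPM in MTX libraries, against 106, 107, 103, 74.4 and 94.8 CPM in MTX+nitrate libraries and 115, 98.6, 92.3, 111 and 89.1 CPM in control libraries. Its ratio over control was 0.555, and no MTX+nitrate library exceeded the highest control. Arhgap23, a GTPase-activating protein, had 14.4, 14.5, 16.2, 17.5 and 16.0 CPM in MTX libraries, against 30.8, 32.9, 28.9, 30.6 and 23.7 CPM in MTX+nitrate libraries and 25.7, 19.9, 26.2, 26.6 and 21.4 CPM in control libraries. Dock9, an exchange factor for Cdc42, had 18.0, 18.0, 16.5, 14.5 and 18.4 CPM in MTX libraries, against 20.9, 22.8, 28.1, 23.6 and 23.4 CPM in MTX+nitrate libraries and 20.7, 20.1, 20.2, 19.1 and 20.0 CPM in control libraries. In both genes MTX+nitrate tended to the top, with 4 libraries above all controls for Arhgap23 and all 5 for Dock9. Their MTX over control ratios were 0.655 and 0.852. Plekhg1 and Arhgap23 stayed lowest on both other scales, Plekha6 after TMM scaling alone and Dock9 on neither.

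**Figure D3:**
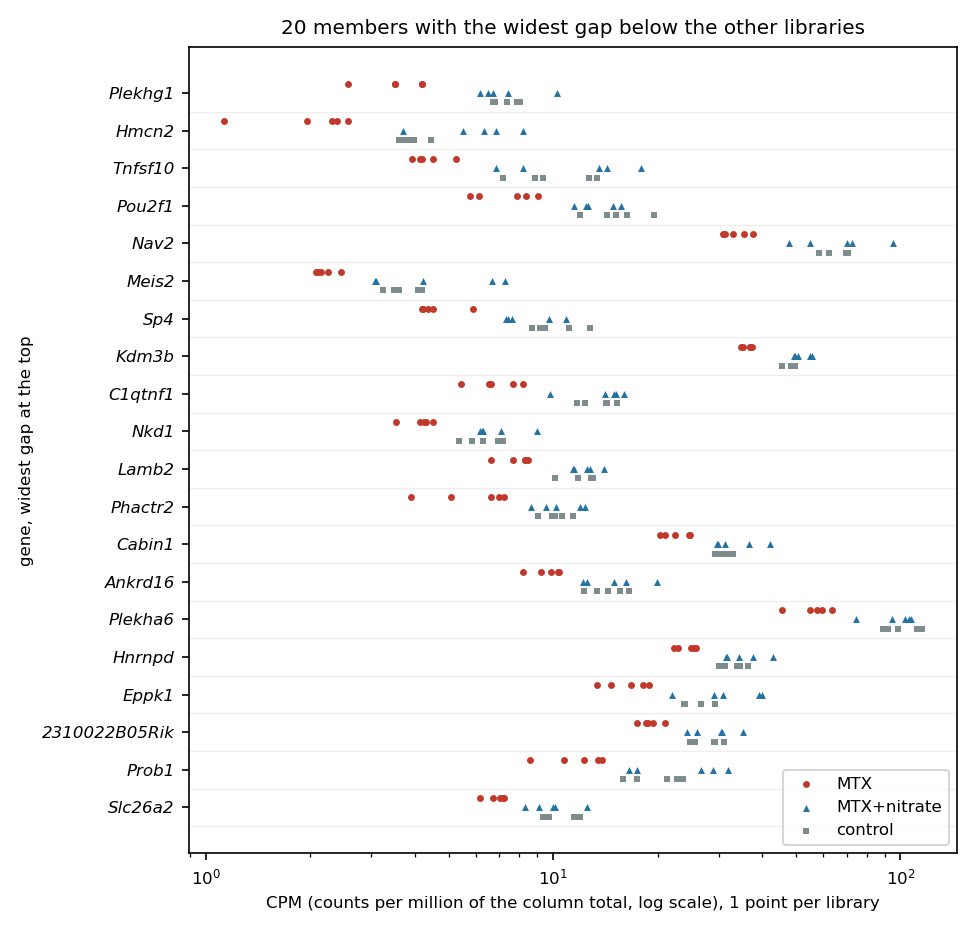
CPM in each library (log axis) for the 20 members with the widest gap between the highest MTX library and the lowest other library, widest at the top. MTX libraries are circles, MTX+nitrate triangles and control libraries squares; Plekhg1 has the widest gap, and the MTX+nitrate and control points overlap or interleave in each of the 20 genes.

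Sequence-specific transcription factors made up 16 members, of which 7 stayed lowest after TMM scaling and 4 after trend removal. Pou2f1 (chr1:165865154-166002678), the octamer-binding factor Oct-1, had 5.76, 8.38, 9.03, 6.11 and 7.86 CPM in MTX libraries, against 15.7, 12.6, 14.9, 11.5 and 12.5 CPM in MTX+nitrate libraries and 11.9, 14.3, 16.3, 15.1 and 19.5 CPM in control libraries. Its MTX over control ratio was 0.481, and no MTX+nitrate library exceeded the highest control. Sp4 (chr12:118234933-118301440), a zinc finger factor of the Sp family that binds GC boxes, had 4.20, 4.50, 4.35, 4.21 and 5.88 CPM in MTX libraries, against 10.9, 7.42, 9.74, 7.29 and 7.63 CPM in MTX+nitrate libraries and 11.1, 12.8, 8.72, 9.18 and 9.48 CPM in control libraries. MTX 5 was the highest MTX library for Sp4, 3 MTX+nitrate libraries lay below all controls, and the ratio over control was 0.451. Meis2 (chr2:115863064-116065839), a homeodomain factor, had 2.24, 2.11, 2.45, 2.08 and 2.15 CPM in MTX libraries, against 3.09, 3.06, 7.25, 6.66 and 4.21 CPM in MTX+nitrate libraries and 3.49, 3.25, 3.61, 4.08 and 4.20 CPM in control libraries. In Meis2 the MTX+nitrate libraries spread widely, with 3 above and 2 below all controls. Thra, a thyroid hormone receptor whose position overlaps that of Nr1d1, had 15.1, 13.3, 13.0, 15.8 and 16.1 CPM in MTX libraries, against 28.2, 26.6, 23.3, 20.6 and 20.2 CPM in MTX+nitrate libraries and 18.9, 19.6, 19.0, 19.9 and 18.3 CPM in control libraries. All 5 MTX+nitrate libraries lay above all controls for Thra, and the MTX over control ratio was 0.766. Pou2f1, Sp4 and Meis2 stayed lowest on both other scales, and Thra after TMM scaling. Among nuclear receptors and their partners, Thra was the single member of 34 candidates.

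Chromatin regulators and transcription cofactors were the most numerous role, with 32 members, of which 7 stayed lowest after TMM scaling and 4 after trend removal. Kdm3b (chr18:34777047-34838660), a histone H3 lysine demethylase, had 36.8, 36.8, 37.3, 34.7 and 35.2 CPM in MTX libraries, against 55.6, 49.8, 50.8, 54.8 and 49.3 CPM in MTX+nitrate libraries and 48.4, 49.6, 45.5, 49.2 and 49.0 CPM in control libraries. In Kdm3b 4 MTX+nitrate libraries lay above all controls. Cabin1 (chr10:75646112-75764341), a partner of the HIRA histone chaperone, had 21.0, 24.6, 22.5, 24.8 and 20.2 CPM in MTX libraries, against 36.7, 42.1, 29.6, 31.2 and 29.7 CPM in MTX+nitrate libraries and 32.9, 29.2, 31.5, 32.1 and 30.2 CPM in control libraries. The MTX over control ratios were 0.748 for Kdm3b and 0.725 for Cabin1. Arid1a and Smarca2 encode a subunit and an ATPase of SWI/SNF remodelling complexes. Arid1a had 59.2, 61.6, 54.4, 62.5 and 58.6 CPM in MTX libraries, against 78.6, 90.2, 95.7, 87.7 and 81.6 CPM in MTX+nitrate libraries and 64.5, 67.9, 75.5, 76.2 and 85.4 CPM in control libraries. Smarca2 had 100.3, 92.4, 113, 97.5 and 94.5 CPM in MTX libraries, against 124, 122, 125, 132 and 117 CPM in MTX+nitrate libraries and 147, 129.7, 132, 125 and 124 CPM in control libraries. Arid1a was highest in MTX+nitrate, with 3 libraries above all controls, whereas for Smarca2 no MTX+nitrate library exceeded the highest control.

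Chd6, a chromodomain remodeller, had 24.0, 23.9, 22.5, 21.4 and 22.0 CPM in MTX libraries, against 30.7, 28.5, 33.7, 30.7 and 29.1 CPM in MTX+nitrate libraries and 32.9, 29.8, 25.9, 30.3 and 30.5 CPM in control libraries. Its MTX over control ratio was 0.763. Dnmt3a, a DNA methyltransferase that sets new methylation, had 27.5, 30.9, 29.1, 23.9 and 32.6 CPM in MTX libraries, against 40.2, 47.5, 42.9, 43.1 and 39.0 CPM in MTX+nitrate libraries and 38.9, 36.3, 40.8, 40.6 and 34.1 CPM in control libraries. Kat6b, a histone acetyltransferase, had 15.9, 13.5, 16.4, 16.6 and 16.7 CPM in MTX libraries, against 23.3, 17.0, 25.1, 21.2 and 22.6 CPM in MTX+nitrate libraries and 25.4, 23.4, 20.2, 22.2 and 22.6 CPM in control libraries. MTX 2 was lowest for Kat6b, 3 MTX+nitrate libraries exceeded all controls for Dnmt3a, and the ratios over control were 0.755 for Dnmt3a and 0.695 for Kat6b. Kdm3b stayed lowest on both other scales, Cabin1 and Chd6 after TMM scaling alone, and Arid1a, Smarca2, Dnmt3a and Kat6b on neither. Other members of the role were subunits of the SAGA complex (Supt20, Supt7l and Usp22), of Mediator (Med12 and Med15) and of the NuA4 acetyltransferase (Kat5 and Brd8), with ratios over control of 0.772 to 0.876. Of the list of chromatin methylation and acetylation regulators, 6 of 60 candidates (10.0%) were members. The share was 1.98% of all candidates and 4.69% of the longest of 4 equal bins by exonic length. The 32 members of the chromatin role had a median exonic length of 8782.5 bases, and the list's share was not adjusted for length. With its members included, the list's median log2 change on the TMM scale was -0.12 in MTX against control, 0.15 in MTX+nitrate against MTX and 0.03 in MTX+nitrate against control. The medians of all genes tested were -0.00074, 0.0084 and 0.01. Outside the members, the list held 1 gene called lower in MTX than in control, Tet3, which oxidises methylcytosine (log2 change -0.44 ± 0.11 SE, edgeR adjusted p 0.0404). It held 1 called higher in MTX+nitrate than in MTX, Kdm6b, a demethylase (0.49 ± 0.14, edgeR adjusted p 0.0489). Over all genes tested, 1.6% were called lower in MTX against control and 2.37% higher in MTX+nitrate against MTX. With 61 genes of the list tested, 1 such call is near these shares.

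RNA-binding, processing and decay proteins numbered 23, of which 6 stayed lowest after TMM scaling and 3 after trend removal. Hnrnpd (chr5:99955935-99978938), the mRNA-decay factor AUF1, had 22.3, 24.9, 25.4, 25.7 and 22.9 CPM in MTX libraries, against 37.6, 31.4, 34.3, 42.8 and 31.6 CPM in MTX+nitrate libraries and 31.2, 33.8, 30.0, 34.5 and 36.5 CPM in control libraries. Son, a splicing cofactor whose position overlaps that of Donson, had 154, 168, 168, 162 and 166 CPM in MTX libraries, against 202, 202, 245, 209 and 199 CPM in MTX+nitrate libraries and 228, 171, 212, 213 and 238 CPM in control libraries. Ddx17, a DEAD-box RNA helicase, had 140.1, 158, 171, 133 and 123 CPM in MTX libraries, against 192, 189, 241, 228 and 204 CPM in MTX+nitrate libraries and 254, 173, 214, 225 and 222 CPM in control libraries. MTX+nitrate 3 was far above its group for Son, and the MTX over control ratios were 0.731 for Hnrnpd, 0.770 for Son and 0.666 for Ddx17. Of these 3, Hnrnpd alone stayed lowest after TMM scaling. Xrn1, the main cytoplasmic 5′ to 3′ exoribonuclease, had 22.6 ± 2.58 CPM in MTX, 31.1 ± 1.79 CPM in MTX+nitrate and 34.3 ± 2.66 CPM in control libraries (SD, n = 5 each) and stayed lowest on both scales. Zc3h12d, a CCCH zinc finger protein of the Regnase family, had the smallest MTX over control ratio of all members, 0.358, at 1.06 ± 0.203 CPM in MTX, 2.74 ± 1.02 CPM in MTX+nitrate and 2.95 ± 0.864 CPM in control libraries. The microRNA silencing scaffolds Tnrc6a and Tnrc6b had ratios of 0.776 and 0.652.

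Ubiquitin, SUMO and protein turnover genes numbered 19. Nedd4, a HECT ubiquitin ligase and the member of highest mean CPM (not per length), had 319.8, 358, 377, 336 and 364 CPM in MTX libraries, against 423, 418, 395, 411 and 398 CPM in MTX+nitrate libraries and 452, 409, 382, 408 and 401 CPM in control libraries. Huwe1, another HECT ligase, had 225, 258, 258, 259 and 250.3 CPM in MTX libraries, against 272, 274, 286, 296 and 264 CPM in MTX+nitrate libraries and 329.9, 289, 305, 284 and 337 CPM in control libraries. Birc6, a giant ubiquitin-conjugating inhibitor of apoptosis, had 111, 122, 131, 126 and 136 CPM in MTX libraries, against 139.6, 142, 147, 147 and 142 CPM in MTX+nitrate libraries and 176, 168, 164, 144 and 183 CPM in control libraries. MTX 1 was the lowest library for Huwe1, and for Huwe1 and Birc6 3 MTX+nitrate libraries lay below all controls. The MTX over control ratios were 0.855 for Nedd4, 0.809 for Huwe1 and 0.751 for Birc6, and none of the 3 stayed lowest on another scale. Of the 19 genes, Trim41, Trim56 and Usp40 stayed lowest after TMM scaling, and Klhl36 and Sppl2b after trend removal.

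Cytoskeleton, motor, junction and nuclear envelope genes made up 30 members with a median exonic length of 10173 bases; 8 stayed lowest after TMM scaling and 1 after trend removal. Nav2 (chr7:48908716-49610090), a microtubule-associated neuron navigator with 32228 exonic bases, had 33.0, 37.5, 31.2, 35.5 and 30.9 CPM in MTX libraries, against 47.7, 72.3, 70.4, 95.1 and 54.8 CPM in MTX+nitrate libraries and 58.3, 70.6, 69.6, 62.3 and 62.2 CPM in control libraries. The MTX libraries of Nav2 lay close together at 0.521 of the control mean; its position overlaps that of Gm2788. Eppk1 (chr15:76101481-76120195), the keratin-binding epiplakin, whose position overlaps that of BC024139, had 13.4, 18.2, 18.9, 16.7 and 14.6 CPM in MTX libraries, against 29.1, 22.0, 39.0, 39.9 and 30.9 CPM in MTX+nitrate libraries and 24.0, 26.6, 23.8, 29.3 and 26.6 CPM in control libraries. Phactr2 (chr10:13207717-13474412), a regulator of protein phosphatase 1 and actin, had 6.96, 5.07, 3.90, 6.63 and 7.24 CPM in MTX libraries, against 10.2, 8.61, 12.0, 12.3 and 9.54 CPM in MTX+nitrate libraries and 10.6, 10.1, 9.05, 9.93 and 11.4 CPM in control libraries. MTX over control ratios were 0.628 for Eppk1 and 0.583 for Phactr2, and Phactr2 alone of the 30 stayed lowest after trend removal. Amotl1, an angiomotin of cell junctions that binds Yap, had 9.90, 9.07, 10.2, 12.4 and 12.2 CPM in MTX libraries, against 15.2, 15.9, 16.5, 16.6 and 13.5 CPM in MTX+nitrate libraries and 15.6, 13.5, 12.8, 13.4 and 15.8 CPM in control libraries. Its ratio over control was 0.755, and its relative Amot, also a member, had 0.646.

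The spectrins Sptan1 and Sptbn1 form the membrane skeleton. Sptan1 had 111, 115, 123, 118 and 129 CPM in MTX libraries, against 146, 143, 132, 140.3 and 139 CPM in MTX+nitrate libraries and 171, 167, 145, 138 and 141 CPM in control libraries. Sptbn1 had 77.9, 85.5, 87.4, 93.2 and 91.8 CPM in MTX libraries, against 118, 99.8, 119, 129 and 112 CPM in MTX+nitrate libraries and 130.0, 129.8, 109.9, 102 and 116 CPM in control libraries. Both were close in ratio, at 0.782 for Sptan1 and 0.742 for Sptbn1 over control, and no MTX+nitrate library exceeded the highest control in either. Syne1, a nesprin of the nuclear envelope and, at 40491 exonic bases, the longest member, had 75.3, 67.1, 66.2, 66.1 and 70.4 CPM in MTX libraries, against 93.4, 100.3, 125, 81.5 and 100.4 CPM in MTX+nitrate libraries and 78.5, 95.1, 119, 96.4 and 107 CPM in control libraries. Myh10, a non-muscle myosin heavy chain, had 23.3, 20.0, 26.0, 19.0 and 20.9 CPM in MTX libraries, against 40.6, 36.5, 28.0, 28.3 and 33.4 CPM in MTX+nitrate libraries and 34.3, 36.9, 32.9, 27.2 and 36.8 CPM in control libraries. The ratios over control were 0.696 for Syne1 and 0.649 for Myh10, and none of these 4 genes stayed lowest on another scale. Of the list of long cytoskeletal and scaffold proteins, 6 of 32 candidates (18.8%) were members, against 1.98% of all candidates and 4.69% of the longest of 4 equal bins by exonic length: Birc6, Huwe1, Myh10, Sptan1, Sptbn1 and Syne1. With its members included, the list's median log2 change was -0.17 in MTX against control, 0.10 in MTX+nitrate against MTX and -0.02 in MTX+nitrate against control. Its 1 non-member called lower in MTX than in control was Syne2, another nesprin (log2 change -0.42 ± 0.08 SE, edgeR adjusted p 0.0162). Ank3, an ankyrin that links membrane proteins to spectrin, was its 1 non-member called higher in MTX+nitrate than in MTX (0.67 ± 0.14, edgeR adjusted p 0.0225). In MTX+nitrate against control, edgeR called Ubr4, a ubiquitin ligase, lower (-0.37 ± 0.08, adjusted p 0.0267) and Utrn, the dystrophin relative utrophin, lower (-0.44 ± 0.10, adjusted p 0.0287). It called Akap12, a scaffold for protein kinase A, higher (0.92 ± 0.23, edgeR adjusted p 0.0426), and none of these 3 is a member. The list had 34 genes tested. Over all genes tested, 1.6% were called lower in MTX against control and 2.37% higher in MTX+nitrate against MTX. In MTX+nitrate against control, 0.992% were called lower and 1.41% higher.

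Transport and metabolism contributed 14 members, of which Slc12a9 alone stayed lowest on another scale, and on both. Abcc6, a hepatic efflux transporter whose position overlaps that of Gm45674, had 215, 186, 212, 231 and 199 CPM in MTX libraries, against 247, 278, 304, 263 and 269 CPM in MTX+nitrate libraries and 259, 237, 263, 283 and 244 CPM in control libraries. Aspg, an asparaginase, had 155, 157, 175, 158 and 169 CPM in MTX libraries, against 211, 223, 279, 190.2 and 183 CPM in MTX+nitrate libraries and 257, 199, 243, 301 and 188 CPM in control libraries. Mgam, a maltase-glucoamylase, had 156, 165, 181, 171 and 185 CPM in MTX libraries, against 195, 199.6, 221, 227 and 203 CPM in MTX+nitrate libraries and 202, 229, 199, 207 and 215 CPM in control libraries. Abcc6 overlapped between MTX+nitrate and control, as did the other 2 genes, and the MTX over control ratios were 0.811 for Abcc6, 0.685 for Aspg and 0.816 for Mgam. Gckr, the inhibitory regulator of glucokinase in hepatocytes, had 99.8, 108, 144, 131 and 100.5 CPM in MTX libraries, against 147, 148, 207, 168 and 178 CPM in MTX+nitrate libraries and 171, 156, 156, 163 and 147 CPM in control libraries. Its ratio over control was 0.735. No member came from the lists of bile acid and cholesterol handling (30 candidates), fatty acid and glycerolipid enzymes (38), folate and one-carbon metabolism (22), the acute phase (28), the clock (17), Wnt components other than frizzled receptors (26) or insulin and mTOR signalling (28). At the 1.98% of all candidates, lists of this size would often hold no member, so their absence is no result about these pathways. Among gene families found by name, there was no member in 62 cytochromes P450, 90 ribosomal protein genes or 62 subunits of NADH dehydrogenase and ATP synthase. The share of members differed with gene length, which these family counts do not allow for. There were 2 members in 16 laminins (12.5%), 3 in 29 tripartite motif genes (10.3%), 3 in 41 ubiquitin-specific proteases (7.32%), 7 in 252 genes named as zinc finger proteins (2.78%) and 3 in 213 solute carriers (1.41%), against 1.98% of all candidates. Other lists held 1 to 3 members each: 3 of 44 candidates for the Notch, Hippo and TGF-beta pathways (Amotl1, Eng and Tgfbr3; 6.82%), 2 of 36 for basement membrane and matrix (5.56%), 1 of 30 for receptor tyrosine kinases and growth factors (3.33%), 1 of 31 for semaphorins and related guidance genes (3.23%) and 1 of 10 for cadherins (10.0%). With so few members, a single gene moves these shares widely. In a list of at most 44 candidates, any member puts the share above the 1.98% of all candidates.

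The remaining roles were DNA repair, telomeres, centrosome and cilium (8 members), membrane traffic (11) and no assigned role (11). Xrcc2, a factor of homologous recombination, had 1.84, 1.88, 1.51, 1.96 and 1.64 CPM in MTX libraries, against 3.43, 3.01, 3.97, 2.95 and 2.02 CPM in MTX+nitrate libraries and 2.93, 2.73, 3.33, 2.63 and 4.92 CPM in control libraries. It was the 1 member among 28 candidates for DNA repair and replication, with a MTX over control ratio of 0.534, and it stayed lowest on neither other scale. Ankrd16 (chr2:11777876-11790329), an ankyrin repeat protein, had 9.84, 10.3, 9.26, 8.19 and 10.4 CPM in MTX libraries, against 16.2, 12.2, 19.9, 12.5 and 15.0 CPM in MTX+nitrate libraries and 15.6, 14.4, 13.4, 16.5 and 12.2 CPM in control libraries. It stayed lowest on both scales, at 0.666 of control. The gene 2310022B05Rik (chr8:124635756-124663369) had 18.5, 17.4, 19.4, 18.8 and 21.0 CPM in MTX libraries, against 35.1, 24.3, 26.0, 30.6 and 30.5 CPM in MTX+nitrate libraries and 29.0, 29.3, 31.0, 25.7 and 24.7 CPM in control libraries. Prob1 (chr18:35650351-35655238) had 10.8, 8.55, 13.8, 13.4 and 12.3 CPM in MTX libraries, against 26.6, 31.9, 16.6, 17.5 and 28.8 CPM in MTX+nitrate libraries and 21.3, 15.9, 23.7, 22.7 and 17.4 CPM in control libraries. Their ratios over control were 0.681 and 0.583, and both stayed lowest after TMM scaling. In membrane traffic, Sh3bp4, an endocytic adaptor, had the smallest MTX over MTX+nitrate ratio of all members, 0.307, and Hps3 and Hps5, subunits of a complex that builds lysosome-related organelles, had MTX over control ratios of 0.778 for Hps5 and 0.807 for Hps3.

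A wide gap leaves more room for rescaling, so the following counts describe the scales and are no sign of stability. All 20 members with the widest gaps stayed lowest after TMM scaling and 10 of them after trend removal. Of the 10 members with the highest mean CPM none did on either scale. By level, members made up 1.22%, 2.40%, 2.33% and 1.96% of candidates in 4 bins of equal size from low to high mean CPM.

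Members were long genes. Their median exonic length was 7728 bases, against 4484 bases for all candidates, and their median genomic span was 55145 bases, against 24936 bases. In 4 bins of candidates of equal size by exonic length, 7, 30, 50 and 127 were members from the shortest to the longest bin, or 0.258%, 1.11%, 1.85% and 4.69%. Median GC content was 50.6% in members and 49.6% in candidates. The 17 genes highest in MTX had a median of 1725 bases and the 173 highest in MTX+nitrate 5485 bases. The 57 genes highest in control were longer than the members, with a median of 8101 exonic bases and a median span of 60823 bases. The 39 genes lowest in control had a median of 2518 bases and the 7 lowest in MTX+nitrate 2795 bases. The median was 7054 bases in the 60 genes that stayed lowest after TMM scaling and 5020 bases in the 35 members that did after trend removal.

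The libraries themselves differed along gene length. Over all candidates, the Spearman correlation between a gene's deviation from its mean and its length was -0.310, -0.261, -0.241, -0.291 and -0.0122 in MTX 1 to 5. It was 0.119, 0.0445, 0.105, 0.141 and -0.0308 in MTX+nitrate 1 to 5, and 0.298, 0.0498, 0.0643, 0.0163 and 0.253 in control 1 to 5. MTX 1 to 4 lay below every library of the other groups, and MTX 5 stood apart from them, above MTX+nitrate 5. The mean was -0.223 ± 0.121 in MTX and 0.136 ± 0.129 in control libraries (SD, n = 5 each), and the 2-sided exact permutation p was 0.00794, the smallest such a test can give, and 0.0238 after adjustment over the 3 pairs of groups. Against MTX+nitrate (0.0757 ± 0.0695, n = 5) the exact permutation p for MTX was 0.0159, adjusted 0.0238, and between MTX+nitrate and control it was 0.373. Leaving the members out gave nearly the same values in each library. The libraries also differed along GC content. The Spearman correlation of the deviation with GC ran from -0.258 to 0.229 in MTX, 0.0580 to 0.352 in MTX+nitrate and -0.364 to 0.0179 in control libraries, and was not tested. The part of the length and GC trends in the members' levels was not tested. The counts given above after trend removal had both trends and each library's mean log2 deviation taken out.

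**Figure D4:**
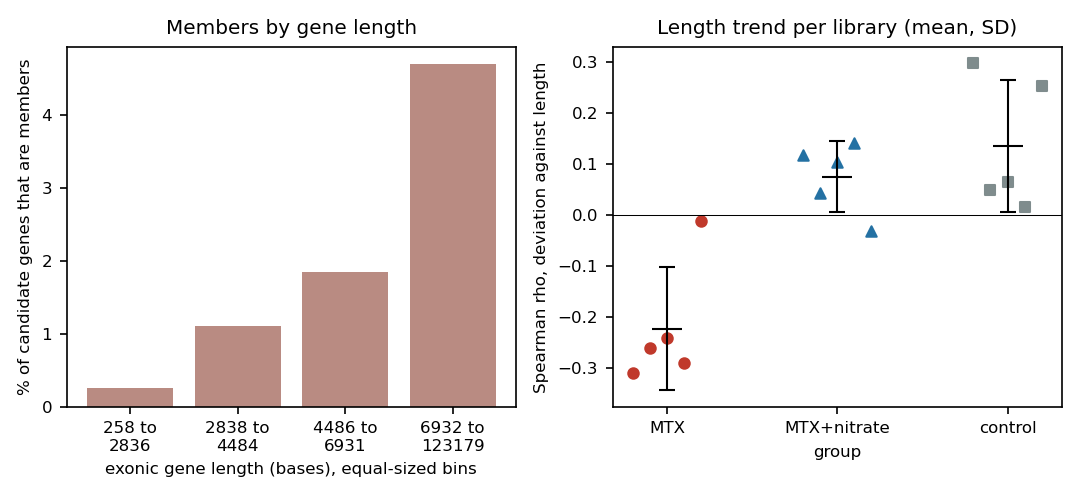
Left, percent of candidate genes that are members in 4 bins of equal size by exonic length; right, Spearman correlation of each gene's log2 deviation with its length in each library, with group mean and SD (n = 5). Members make up 4.69% of the longest bin and 0.258% of the shortest, and MTX 1 to 4 lie at -0.310 to -0.241, below every other library, while MTX 5 lies at -0.0122.

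MTX+nitrate against control was the 1 comparison whose direction the rule left free. By edgeR's quasi-likelihood test on all 14219 genes that passed the count filter, 342 genes were called in MTX+nitrate against control at an adjusted p under 0.05, which is 2.41% of the genes tested, 201 of them higher (1.41%) and 141 lower (0.992%). All 214 members were tested and none was called. At an unadjusted p under 0.05 there were 24 members (18 higher, 6 lower), or 11.2%, against 17.6% of all genes tested. DESeq2 called 3 of the 214 members, where it called 752 genes in all. Without MTX+nitrate 1, edgeR called Map4 alone of the members, where it called 312 genes in all. A requirement that both groups lie above the MTX libraries limits how far MTX+nitrate and control can differ, so these shares are a description. In a simulation of this comparison over 14029 genes, the test recovered 32 of 100 genes changed 1.5-fold and 83 of 100 changed 2-fold.

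The mean MTX+nitrate over control ratio had a median of 1.03 over members, as over all candidates. It was above 1 in 136 members (63.6%, against 56.9% of candidates), within 10% of control in 157 (73.4%, against 48.8%), over 20% higher in 19 and over 15% lower in 6. The counts of 19 and 6 use unlike limits and cannot be set against each other, and the shares of candidates past these limits were not counted. In 5 members (2.34%, against 3.79% of candidates) every MTX+nitrate library lay above every control library: Thra, Slc12a9, Dock9, Zer1 and Map4. In no member did every MTX+nitrate library lie below every control library, as 1.83% of candidates did.

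The members nearest to a call were Zer1, a substrate receptor of a cullin ubiquitin ligase, and Map4, a microtubule-associated protein. Zer1 had 25.2, 25.1, 30.6, 28.8 and 24.8 CPM in MTX libraries, against 41.9, 40.3, 39.7, 38.0 and 39.7 CPM in MTX+nitrate libraries and 33.3, 32.0, 34.1, 31.4 and 31.0 CPM in control libraries. Its log2 change in MTX+nitrate against control was 0.28 ± 0.08 (SE) with an edgeR adjusted p of 0.0666. Map4 had 52.6, 60.8, 65.6, 62.3 and 55.1 CPM in MTX libraries, against 74.9, 86.8, 82.5, 100.1 and 85.2 CPM in MTX+nitrate libraries and 69.1, 72.2, 68.2, 66.7 and 65.9 CPM in control libraries. Its log2 change was 0.31 ± 0.09 with an edgeR adjusted p of 0.0709. DESeq2 gave an adjusted p of 0.0346 for Zer1 (0.0346 to 0.181 over all settings tried), 0.0319 for Map4 (0.0319 to 0.154) and 0.0459 for Birc6 (0.0459 to 0.257), whose log2 change was -0.24 in edgeR. Atp7b, the copper-exporting ATPase of hepatocytes, had 62.3 ± 6.30 CPM in MTX+nitrate and 50.2 ± 3.95 CPM in control libraries (SD, n = 5 each; edgeR adjusted p 0.0814). Hmcn2 had the largest log2 change of the members, 0.63 ± 0.22, with an edgeR adjusted p of 0.147.

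**Figure D5:**
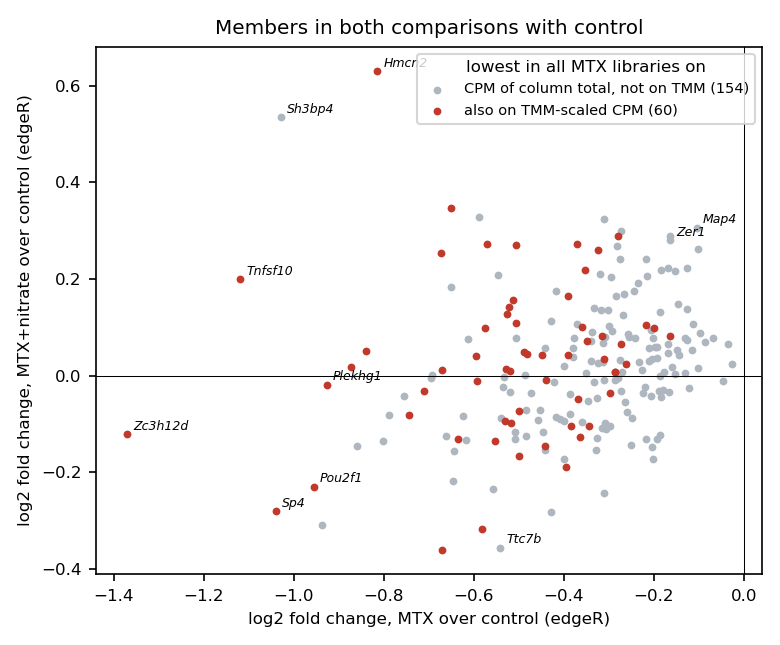
Each point is 1 of the 214 members, placed by its edgeR log2 fold change in MTX over control (horizontal) and in MTX+nitrate over control (vertical), which share the control libraries; red points stayed lowest after TMM scaling. Every point lies left of 0. The rule fixed this direction on plain CPM, and the change to the TMM scale of these values was too small to reverse it in any member. The vertical values spread around a median of 0.02.

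For the 2 comparisons that the rule used, calls are given as a description alone. In MTX against control, 521 genes were called (3.66% of those tested), 293 of them higher (2.06%) and 228 lower (1.6%), and 67 members were among the lower genes. In MTX+nitrate against MTX, 613 genes were called (4.31%), 337 of them higher (2.37%) and 276 lower (1.94%), and 92 members were among the higher genes. Both calls held for 43 members and neither for 98. The members' median log2 change on the TMM scale was -0.33 in MTX against control, 0.37 in MTX+nitrate against MTX and 0.02 in MTX+nitrate against control. Leaving out 1 library at a time gave 86 to 995 calls in MTX against control, 166 to 600 in MTX+nitrate against MTX and 99 to 312 in MTX+nitrate against control.

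Set beside the other 5 ways in which 1 group can lie outside the other 10 libraries, lowest in MTX was the most frequent on plain CPM. There were 214 genes lowest and 17 highest in MTX, 7 lowest and 173 highest in MTX+nitrate, and 39 lowest and 57 highest in control. The exclusion by name removed 51 candidates, of which Itga8, an integrin alpha chain, and Fzd6, a Wnt receptor, had the pattern. A further 15 protein-coding genes had it below the expression limit. Members lay on all autosomes and on the X chromosome, from 1.03% of candidates on chromosome 13 to 3.20% on chromosome 15. The positions of 33 members overlap a gene of at least 2 CPM, and reads of such pairs may have been split differently under another counting rule.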

How the data were processed

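Liver RNA was isolated with an RNeasy kit and sequenced in 15 libraries made with a SMARTer mRNA-seq kit, per the labels' protocols. The authors deposited 1 table of raw whole-number counts per gene, on GRCm38 (mm10) per the submitters' processing notes; for the aligner, counter, strand setting and annotation, nothing was stated: they were not given in the sources used here. All 15 columns were matched to a library by label, and 0 columns of per-sample values were left unused. The gene length in the table equals the union of exons in GENCODE M21 for 98.0% of 54409 genes.

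Members were found on CPM of the column total. The members, the gene lists and the tests were chosen with earlier results of these data known, and roles were assigned after the member names were known. Values in every library are given for the 20 members with the widest gap, the 10 of highest mean CPM, those on the gene lists and those called in MTX+nitrate against control (0), in all 52, of which 1 is not reported here; library values of Zer1 and Map4 were added after their p-values were seen. No set test was run. Genes that passed filterByExpr (14219) were tested with edgeR 4.0.16 (quasi-likelihood, TMM, R 4.3.3) in 1 model of 3 groups with 12 residual degrees of freedom, adjusted by Benjamini-Hochberg over all genes tested, with a threshold of 0.05. The common biological coefficient of variation was 0.223. The fit was tested on simulated counts first. Length and GC trends were removed per library with mgcv 1.9.3, together with the fitted intercept, which is the library's mean log2 deviation over candidates. DESeq2 1.42.0, other filters, scalings and left-out libraries were alternatives. Counts of the 30 pairs of libraries within groups differed by 21.6 to 58.4 times the sampling variance, so no library was a repeat of another.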

Additional observations from a re-analysis of the deposited data

Results flagged for a closer look

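In 162 sets of 5 libraries, 6 held a library far from the other 4 of its group, and about 5% would be set apart by chance alone. Sp4 was 5.88 CPM in MTX 5, against 4.20 to 4.50 CPM in the other MTX libraries. Huwe1 was 224.6 CPM in MTX 1, against 250.3 to 259 CPM in the others. Kat6b was 13.5 CPM in MTX 2, against 15.9 to 16.7 CPM in the others. Son was 245.4 CPM in MTX+nitrate 3, against 199 to 209 CPM in the other MTX+nitrate libraries. Ppm1b was 212.0 CPM in control 2, against 161 to 176 CPM in the other controls. The length trend was -0.0122 in MTX 5, against -0.310 to -0.241 in the other MTX libraries.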

How the results depend on the processing

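The number of genes lowest in MTX was 60 on TMM-scaled CPM, against 214 on plain CPM. It was 38 after removal of length and GC trends with each library's mean log2 deviation. It was 222 with a floor of 1 CPM and 201 with a floor of 5 CPM. Leaving out each library in turn gave 219 to 373 genes, with the most without MTX 5 (373) and MTX 3 (330); this number can only grow when a library is dropped, apart from genes at the CPM floor. For 342 genes called in MTX+nitrate against control, DESeq2 gave 752 and the replicate block 157. For 521 called in MTX against control, DESeq2 gave 1141 and the block 142. For 613 called in MTX+nitrate against MTX, DESeq2 gave 1167, no expression filter 384, the block 129 and a fit over 2 groups 248. Leaving out 1 library gave 99 to 312, 86 to 995 and 166 to 600 calls in these comparisons. The number moved by over 1.5 times for each library of the first comparison but MTX+nitrate 1 and control 2, for MTX 1, 2, 4 and 5 and control 1, 3, 4 and 5 in the second, and for MTX 1 to 4 and MTX+nitrate 1 to 4 in the third; the causes were not tested. No member was called in MTX+nitrate against control, but DESeq2 called 3 (Birc6, Map4 and Zer1), and leaving out 1 library gave 0 to 1 (Map4 without MTX+nitrate 1, adjusted p 0.0362). The replicate numbers were not taken as pairs: deviations of same-numbered libraries correlated at -0.194 to 0.0636. Of the 52 members with library values by rule, 25 stayed lowest after TMM scaling and 13 after trend removal, comparisons added after the data were seen. Members near 2 CPM are limited by counting error.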

Other observations

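Among 632 genes of other types with a mean of at least 2 CPM, 3 (0.475%) were lowest in all MTX libraries, and 3 were highest. Neat1, the long non-coding RNA that scaffolds nuclear paraspeckles, had 95.4 ± 26.7 CPM in MTX, 279 ± 96.6 CPM in MTX+nitrate and 199 ± 30.8 CPM in control libraries (SD, n = 5 each). Its MTX libraries ran from 56.4 to 129.5 CPM, its MTX+nitrate libraries from 165.4 to 385 CPM and its control libraries from 165.1 to 234 CPM. AU020206, a lincRNA, had 4.62 ± 1.20 CPM in MTX, 7.84 ± 0.809 CPM in MTX+nitrate and 6.70 ± 0.452 CPM in control libraries. BC048644 had 1.77 ± 0.781 CPM in MTX, 4.37 ± 1.07 CPM in MTX+nitrate and 4.58 ± 1.45 CPM in control libraries. These levels are plain CPM, and no test is given since the same pattern chose the genes.

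Of the genes left out by name, Itga8 averaged 8.52 CPM in MTX, 22.2 CPM in MTX+nitrate and 23.8 CPM in control libraries, and Fzd6 averaged 4.06 CPM in MTX, 9.09 CPM in MTX+nitrate and 11.2 CPM in control libraries.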
